A study of Mus musculus with 14 samples.

Results

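The DNA replication machinery was described here through 49 genes, matched by symbol and grouped by their role in copying DNA. They fall into origin recognition and licensing (9 genes), the replicative helicase and its loading (14), polymerases (11), the sliding clamp with its loader and Okazaki fragment enzymes (12), and the supply of deoxynucleotides (3). All 49 were among the 11317 genes tested in RNA. Rows were listed for 30 of them in m6A-RIP, for 18 in Igf2bp3-RIP and for 24 in Lin28a-RIP.

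The libraries came from cultured mouse muscle stem cells (MuSCs), the satellite cells that repair skeletal muscle, labelled either as control or as Lin28a positive (Lin28a+). Each group had 2 libraries of input RNA (the RNA-seq), 2 of m6A-RIP and 2 of Igf2bp3-RIP, and the Lin28a+ cells also had 2 of Lin28a-RIP, which makes 14 libraries. In RIP-seq, RNA is pulled down with an antibody, here against the m6A mark on adenosine, against Igf2bp3 (an RNA-binding protein that reads m6A) or against Lin28a (an RNA-binding protein of early development), and then sequenced. The labels give no further treatment, age or strain, and all cells grew in the same serum-containing medium. The study describes its Lin28a+ MuSCs as isolated by flow cytometry from muscle of Lin28a-CreERT2; LSL-tdTomato mice, which carry a CreERT2 driven by Lin28a and a red reporter that Cre activity switches on. The sources used here do not give the origin of the control cells. The methods also hold a lentivirus to overexpress Lin28a, made from a plasmid whose name holds EF1, EGFP and puro. The study's methods give a minimum of biological replicates per experiment that exceeds the 2 libraries a group here. Nothing says whether 2 libraries of a group came from separate animals or cultures. P-values therefore measure only the spread between these libraries, which may be technical. Lin28a itself was not analysed here.

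Replication starts where the origin recognition complex sits on DNA and Cdc6 and Cdt1 load the Mcm2-7 ring. The kinase Cdc7 with Dbf4, together with Cdc45 and the GINS complex, turns the ring into an active helicase, polymerase alpha with primase starts each strand, and polymerases delta and epsilon extend it on the PCNA clamp that replication factor C loads. In dividing cells many of these genes are transcribed around the G1/S transition under E2F factors, and satellite cells switch them on as they leave quiescence.

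Since many of these genes are known E2F targets, the members' promoters were read in RefSeq windows (GRCm38.p6) that run from 250 bases before to 50 bases after a transcription start. Windows were found for 41 of the 49 members, all but Gins1, Gins2, Gins4, Gmnn, Mcm4, Pole, Prim2 and Rfc2. The words TTTCCCGC, TTTCGCGC, TTTGCCGC and TTTGGCGC, which are common forms of the E2F site, were searched on both strands, where overlapping words counted separately. At least 1 of them stood in 17 of the 50 windows of members (34%), against 2.26% of all 32851 windows and 4.1% of the windows of genes tested in RNA. By gene, 16 of 41 members held a word. The share was 12 of 30 among members that rose in RNA and 4 of 10 among members not past the threshold. The pentamer CCAAT stood in 50% of the members' windows and 37.4% of all windows, and TTTGAA in 14% and 17.9%. Word-bearing stretches that lie wholly upstream of the gene are given here, 5′ to 3′ on the gene's strand and with the E2F words in capitals. They belong to 2 Mcm ring subunits, a GINS subunit and a clamp loader subunit, all past the threshold in RNA, Gins3 not in every setting.
Mcm5 (chr8:75109324-75109395, plus strand): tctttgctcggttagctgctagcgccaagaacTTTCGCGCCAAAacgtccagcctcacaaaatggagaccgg
Mcm6 (chr1:128359776-128359847, minus strand): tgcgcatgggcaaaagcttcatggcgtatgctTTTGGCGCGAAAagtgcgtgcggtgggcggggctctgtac
Gins3 (chr8:95633486-95633557, plus strand): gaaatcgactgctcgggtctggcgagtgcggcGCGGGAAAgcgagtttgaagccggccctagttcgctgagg
Rfc3 (chr5:151651209-151651250, minus strand): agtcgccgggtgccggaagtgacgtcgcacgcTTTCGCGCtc
In Mcm5 and Mcm6 the capitals hold 2 overlapping words, 1 on each strand, which begin 153 and 149 bases before the start in Mcm5 and 110 and 106 bases before it in Mcm6. Another word in Mcm6 begins 47 bases before the start. The word printed begins 41 bases before the start in Gins3 and 10 bases before it in Rfc3, whose window also holds a word that begins at the start itself and is not printed. A match describes the letters in the window and not binding of a factor.

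Library totals were 4842915 to 6220960 counts in the input, 21350962 to 31830638 in m6A-RIP, 9215355 to 34142094 in Igf2bp3-RIP, and 36610494 and 33908110 in Lin28a-RIP. Beyond counting noise, pooled over genes, libraries of 1 group spread by 2.48% in RNA, 5.74% in m6A-RIP per gene and 25.4% in Igf2bp3-RIP. These are edgeR's common biological coefficients of variation, and single genes can spread more. Levels are given as CPM, counts relative to the TMM-scaled library total, and a fold change is Lin28a+ over control. As a check on cell identity, all 10 myogenic markers passed the filter on low counts, with summed levels of 15395 to 15669 CPM in control and 14771 to 14936 CPM in Lin28a+ libraries, Myod1 alone at 4650 to 4730 CPM. Of the markers of other cells, 0 of 7 endothelial genes passed it (Pecam1 had 2 or 3 counts a library, and 5 of the 7 had no row in the input table), 1 of 8 macrophage and immune genes (Cd14, 1.29 to 3.27 CPM, with Ptprc at 0 counts) and 3 of 8 fibro-adipogenic genes (summed 125 to 126 CPM in control and 130 to 132 CPM in Lin28a+). Of these 3, Ly6a rose from 3.93 and 4.51 to 13.6 and 12.5 CPM. In m6A-RIP, 2 endothelial genes without an input row were higher, Cldn5 (6.73 and 6.6 against 13.8 and 13.3 CPM) and Cdh5 (0.789 and 0.723 against 1.78 and 1.53 CPM). The 4 of 7 pericyte and smooth muscle markers that passed summed to 5409 to 5451 CPM in control and 7481 to 7501 CPM in Lin28a+ libraries, mostly from Acta2. Among them Mcam rose from 6.74 and 5.79 to 56.4 and 56 CPM and Pdgfrb from 1.87 and 1.61 to 3.93 and 4.5 CPM, while Rgs5 fell from 2.44 and 2.09 to 0.197 and 0.204 CPM, with 1 count in each Lin28a+ library. Of the 10 myogenic markers 3 rose and 5 fell. Myog, a factor of early differentiation, rose from 766 and 775 to 2770 and 2810 CPM, Myf5 fell from 451 and 465 to 197 and 200 CPM, and Vcam1 had the largest fall on the log2 scale (16.9 and 18.3 to 3.93 and 5.32 CPM). The part of these differences in the results for the replication genes was not tested.

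The first question was whether RNA of the replication machinery differed between Lin28a+ and control MuSCs. It was higher for most of it: 38 of the 49 members rose and 1 fell at an adjusted p under 0.05 (edgeR's quasi-likelihood test with Benjamini-Hochberg adjustment over all genes), where 28.1% of all genes tested rose and 28.7% fell. The median log2 fold change was 0.67 over the members and 0.01 over all genes. DESeq2 called 26 of the 38 and not Cdc7, Dna2, Gins3, Mcm10, Mcm4, Orc5, Orc6, Pola2, Pole, Pole4, Prim2 and Rpa1. The increases ran from 1.13-fold to 2.97-fold, and 14 members were more than 2-fold higher. The libraries of the groups did not overlap for 47 of the 49 members, all but Orc2 and Pold4, nor for 84.8% of all genes tested. In bulk libraries, more cells in S phase and more replication RNA in each cell cannot be told apart.

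**Figure D1:**
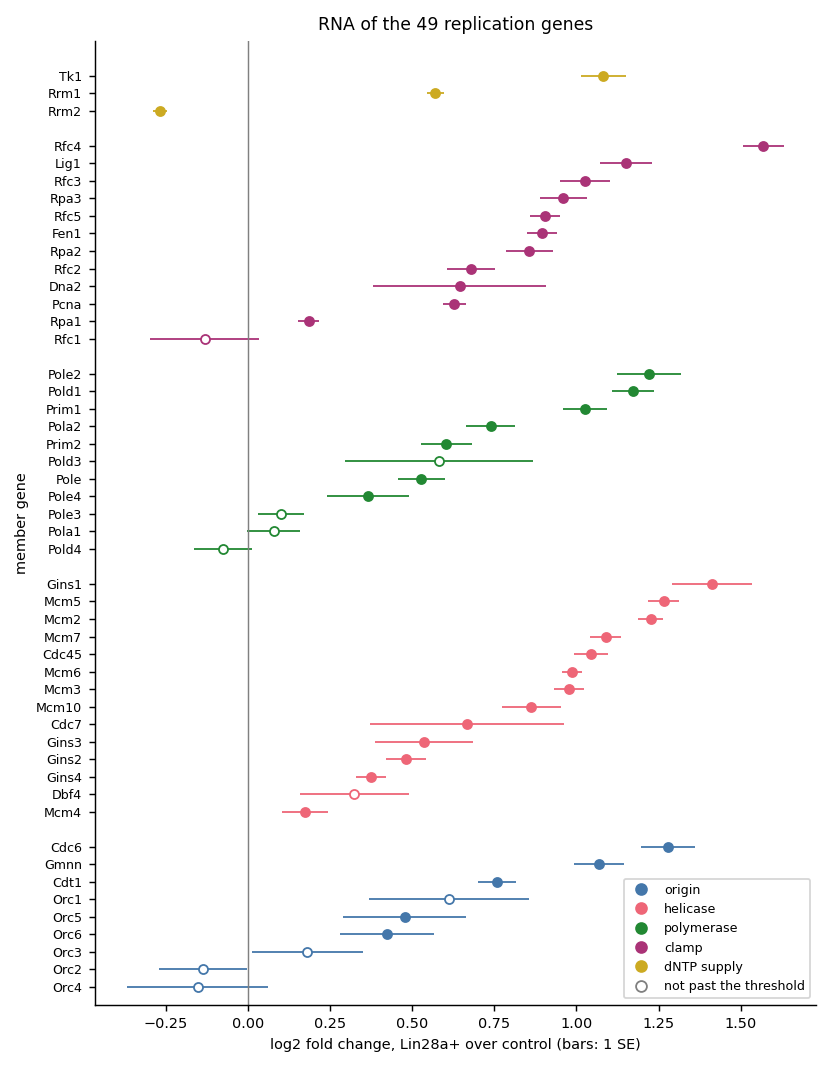
The log2 fold change in RNA (horizontal axis, Lin28a+ over control) of each of the 49 members, grouped by subcomplex, with 1 SE from 2 libraries a group. Filled points passed the adjusted p threshold, and the helicase group lies wholly to the right of 0, from 0.17 (Mcm4) to 1.41 (Gins1).

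Among the origin genes, the loading factors rose and most subunits of the recognition complex did not. Cdc6, the ATPase that recruits the Mcm ring, was at 8.8 and 9.98 CPM in control and at 22.4 and 23.5 CPM in Lin28a+ libraries. That is a 2.43-fold increase (log2 fold change 1.28, SE 0.0821, edgeR adjusted p = 9.81e-05). Gmnn, the inhibitor of Cdt1 that keeps origins from being licensed again, rose from 9.18 and 8.69 to 19.3 and 18.2 CPM (2.1-fold, adjusted p = 0.000138). Cdt1 itself rose from 24.4 and 24.5 to 42.6 and 39.9 CPM (1.69-fold, adjusted p = 0.000178). Within the origin recognition complex, Orc5 (1.39-fold) and Orc6 (1.34-fold) passed the threshold, but Orc5 missed it without any 1 of the 4 input libraries and Orc6 without control replicate 2 or the first Lin28a+ library. Orc1, Orc2, Orc3 and Orc4 did not, with log2 fold changes of 0.61, -0.14, 0.18 and -0.15. Orc1 had only 16 to 27 counts a library, and its groups did not overlap (3.93 and 2.57 against 4.32 and 5.52 CPM, adjusted p = 0.0815).

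In the helicase group 13 of 14 members rose, with a median log2 fold change of 0.92, and the 1 left, Dbf4, also had a positive value. Gins1, a subunit of the GINS complex, rose from 3.75 and 4.67 CPM to 11.6 and 11 CPM (2.66-fold, SE 0.122 on the log2 scale, adjusted p = 0.000275). All 6 subunits of the Mcm ring passed the threshold, with unlike increases. Mcm5 rose from 40.6 and 43.9 to 103 and 101 CPM (2.4-fold, adjusted p = 1.95e-05). Mcm2 rose from 40.6 and 40.7 to 95.9 and 94.5 CPM (2.34-fold, adjusted p = 1.17e-05). Mcm7, Mcm6 and Mcm3 were 2.13-fold, 1.98-fold and 1.97-fold higher. Mcm4, which sits in the same ring, went from 76.4 and 75 to 86.9 and 83.8 CPM, a 1.13-fold increase (log2 fold change 0.17, SE 0.0695, adjusted p = 0.0236). This call was also lost with at least 10 counts in every library, and without either control input library or the first Lin28a+ input library. The other GINS subunits rose by 1.4-fold (Gins2), 1.45-fold (Gins3) and 1.3-fold (Gins4). The Lin28a+ libraries of Gins3 stood apart (18.7 and 13.9 CPM, against 11.2 and 11.3 in control), and its call was lost without either control library or the first Lin28a+ library. Cdc45, the partner of Mcm and GINS in the active helicase, was 2.06-fold higher, and Mcm10, which helps to activate it, 1.82-fold. Of the kinase that fires origins, the catalytic subunit Cdc7 rose 1.59-fold (adjusted p = 0.0433), a call also lost with either other filter on low counts, and without control input replicate 1 or either Lin28a+ input library. Its activator Dbf4 had a log2 fold change of 0.32 that missed the threshold (SE 0.165, adjusted p = 0.0811).

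Among the polymerases, 7 of 11 members rose. Pole2, the second subunit of polymerase epsilon, rose from 5.06 and 4.67 to 11 and 11.7 CPM (2.33-fold, SE 0.0979 on the log2 scale, adjusted p = 0.00021). Pold1, the catalytic subunit of polymerase delta, rose from 10.3 and 10.6 to 23.8 and 23.5 CPM (2.26-fold, adjusted p = 5.84e-05). Prim1, the primase that makes the RNA primer, rose from 10.1 in each control library to 21 and 20.2 CPM (2.04-fold, adjusted p = 0.000105). Values differed among the subunits of 1 holoenzyme. In polymerase alpha-primase, Pola2 was 1.67-fold and Prim2 1.52-fold higher, whereas the catalytic subunit Pola1 stood at 11.2 and 10.5 against 11.6 and 11.2 CPM (log2 fold change 0.08, SE 0.0802, adjusted p = 0.742). In polymerase epsilon, the catalytic Pole was 1.44-fold and Pole4 1.29-fold higher, the latter not without control replicate 1 or the second Lin28a+ library. The histone-fold subunit Pole3 had a log2 fold change of 0.10 (SE 0.0694, adjusted p = 0.206). In polymerase delta, the accessory subunits Pold3 and Pold4 had log2 fold changes of 0.58 and -0.08 that did not pass the threshold.

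In the clamp group, 11 of 12 members rose, with a median log2 fold change of 0.88. Rfc4, a small subunit of the clamp loader (chr16:23113948-23127730), had the largest increase of the 49, from 10.1 and 10.3 to 30.1 and 30.7 CPM (2.97-fold, log2 fold change 1.57, SE 0.0612, adjusted p = 2.23e-05). Its RefSeq span shares bases with the neighbouring gene Eif4a2, which fell from 37.1 and 38 to 22.8 and 23.1 CPM. Lig1, the ligase that seals Okazaki fragments, rose from 17.6 and 20.8 to 43.6 and 42.1 CPM (2.22-fold, adjusted p = 0.00013). Rfc3 rose from 7.87 and 7.4 to 15.5 CPM in each Lin28a+ library (2.04-fold, adjusted p = 0.000163). The other small loader subunits, Rfc5 and Rfc2, were 1.87-fold and 1.6-fold higher, while the large subunit Rfc1 had a log2 fold change of -0.13 (SE 0.166, adjusted p = 0.514). Pcna, the clamp, rose 1.55-fold and Fen1, the flap nuclease, 1.86-fold. In the single-stranded DNA binding complex, Rpa3 rose 1.94-fold, Rpa2 1.81-fold and Rpa1 1.14-fold (adjusted p = 0.00459). Dna2, a nuclease and helicase of long flaps, was 1.56-fold higher (adjusted p = 0.0275), a call lost on leaving out control replicate 1 or either Lin28a+ library.

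Both listed subunits of ribonucleotide reductase, the enzyme that makes deoxynucleotides, went in opposite directions. Rrm1, the large subunit, rose from 156 and 153 to 228 and 230 CPM (1.49-fold, SE 0.0265 on the log2 scale, adjusted p = 3.74e-05). Rrm2, the small subunit that carries the radical, fell from 581 and 583 CPM to 483 CPM in each Lin28a+ library (0.83-fold, log2 fold change -0.27, SE 0.0217, adjusted p = 0.000216). It was the only member that fell in RNA, and it fell under every other setting and with any 1 library left out. Tk1, the thymidine salvage kinase, rose from 17.8 and 15.9 to 35.2 and 36 CPM (2.12-fold, adjusted p = 9.21e-05).

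**Figure D2:**
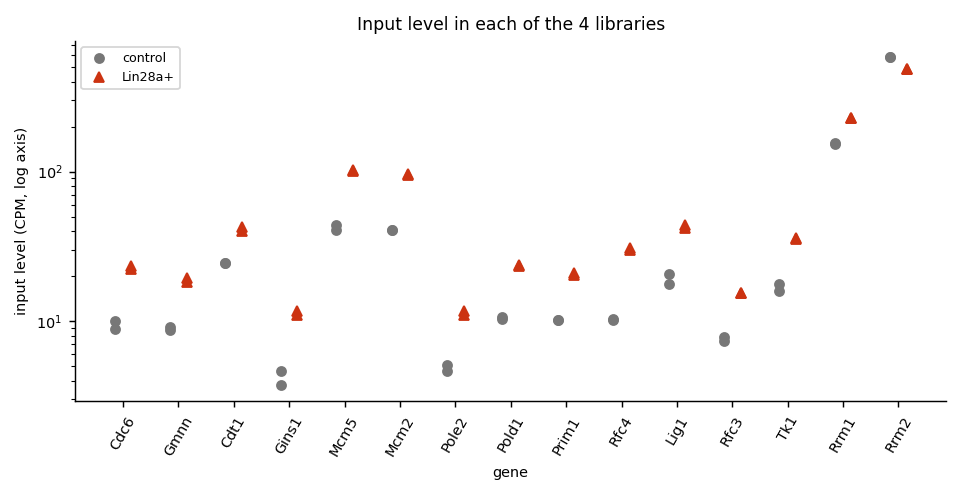
Input level (vertical log axis, CPM) in each of the 2 control libraries (grey circles) and 2 Lin28a+ libraries (red triangles) for 15 members. The groups separate in each gene, upward in 14 and downward in Rrm2, from 581 and 583 to 483 CPM.

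Genes that work beside the replication fork were read from lists chosen for their function. Of 10 genes of chromatin assembly and maintenance, 8 rose and 0 fell, among them the histone chaperone Asf1b (2.54-fold), the chromatin assembly subunit Chaf1b (2.42-fold) and Uhrf1 (2.31-fold), which guides maintenance methylation. Of 15 fork and checkpoint partners tested, 9 rose and 0 fell, with Recql4 (2.52-fold), Chtf18 (2.03-fold) and Dscc1 (1.89-fold) the furthest. Among 12 other genes of nucleotide supply, 10 rose, with Dut (2.69-fold), Tyms (1.88-fold) and Dctpp1 (1.86-fold) in front. The 1 that fell was Rrm2b, the p53-inducible small subunit of ribonucleotide reductase, from 4.68 and 4.83 to 1.97 and 2.25 CPM (0.445-fold, adjusted p = 0.00228), so both small subunits were lower.

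The list of S-phase cyclins, E2F factors and licensing control held 13 genes that rose and 2 that fell among 17. E2f2 rose from 7.31 and 6.92 to 60.9 and 63 CPM (8.7-fold, adjusted p = 5.2e-06), E2f8 2.86-fold and Ccna2, the S-phase cyclin, 1.96-fold. Rb1, the E2F restrainer, was 0.626-fold and E2f3 0.796-fold. Of 8 RNase H2 and topoisomerase genes, Rnaseh2a (1.94-fold), Rnaseh2c (1.92-fold) and Top2a (1.19-fold) rose, and Top2b (0.526-fold) and Top1 (0.533-fold) fell, shares near those over all genes (28.1% and 28.7%). Among 16 markers of G2 and mitosis, 14 rose with a median log2 fold change of 1.05, Plk1 (2.62-fold), Ccnb2 (2.61-fold) and Cdc20 (2.51-fold) the furthest. Mki67, a general marker of cycling cells, was the 1 that fell, from 109 and 112 to 100 and 93.6 CPM (0.876-fold, adjusted p = 0.0125).

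The next question was whether the m6A-RIP signal of the members followed their RNA. Summed per gene, 20 of the 30 members listed rose and 3 fell, where 32.5% of all genes rose and 33.8% fell, with a median log2 fold change of 0.40 over the members and 0.01 over all genes. Of the 23 members listed that had risen in RNA, 19 rose, 2 fell (Rfc4 and Pole4) and 2 were not past the threshold (Mcm4 and Cdc7). Gins2, among the 19, and Rfc4 and Pole4 rest wholly or in part on rows whose transcripts have protein-RIP peaks only in another gene. Tk1 went from 61.9 and 61.7 to 137 and 139 CPM in m6A-RIP (2.24-fold, adjusted p = 4.17e-10). Mcm5 went from 25.7 and 28 to 59.8 and 61.6 CPM (2.27-fold, adjusted p = 2.63e-08). Relative to input these differences were 0.06 for Tk1 and -0.10 for Mcm5, neither past the threshold. Rrm2 fell in m6A-RIP as in RNA, from 349 and 360 to 283 and 290 CPM (0.809-fold, adjusted p = 2.39e-05), and Rrm1 rose 1.51-fold. With total counts in place of TMM scaling, which lowers the median of all genes to -0.09, the signs of Mcm4 and Pole3, both close to 0, turned negative.

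In a model of both assays, the change in m6A-RIP lay below that in RNA for 4 of the 30 members and above it for 0, where 4.09% of all genes were lower and 3.05% higher relative to input. The median difference of log2 fold changes was -0.19 over the members and -0.03 over all genes, and 8 of 30 members lay above 0, against 3463 of all 7943 genes. The 4 were Rfc4, Pole4, Lig1 and Cdc6, of which Rfc4 and Pole4 rest on rows whose transcripts have protein-RIP peaks only in a neighbouring or more distant gene. Rfc4 fell from 51.9 and 52.9 to 28.3 and 27.6 CPM in m6A-RIP while its RNA rose 2.97-fold, a difference of -2.49 (SE 0.109, adjusted p = 3.84e-07), and without its only row, whose transcript has its peak in Eif4a2, it had no m6A-RIP value. Pole4 fell from 99.2 and 102 to 73.5 and 84.1 CPM while its RNA rose 1.29-fold, a difference of -0.73 (SE 0.141, adjusted p = 0.00965). Without 4 rows whose transcript has its peaks in Hk2, the values of Pole4 turned to 0.48 in m6A-RIP and 0.11 relative to input. For Lig1, m6A-RIP rose from 40 and 43.4 to 58 and 59.8 CPM, less than its RNA by 0.67 on the log2 scale (-0.67, SE 0.116, adjusted p = 0.00522). For Cdc6 it rose from 15.2 and 15 to 25.4 and 26.2 CPM (difference -0.53, SE 0.177, adjusted p = 0.0444). The call for Cdc6 was lost with other scaling (adjusted p = 0.0538 with total counts) and on leaving out 6 of the 8 libraries, and Pole4 was past the threshold only with control input replicate 1 (adjusted p = 0.0553 without it) and with the second Lin28a+ input library (adjusted p = 0.0661 without it).

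**Figure D3:**
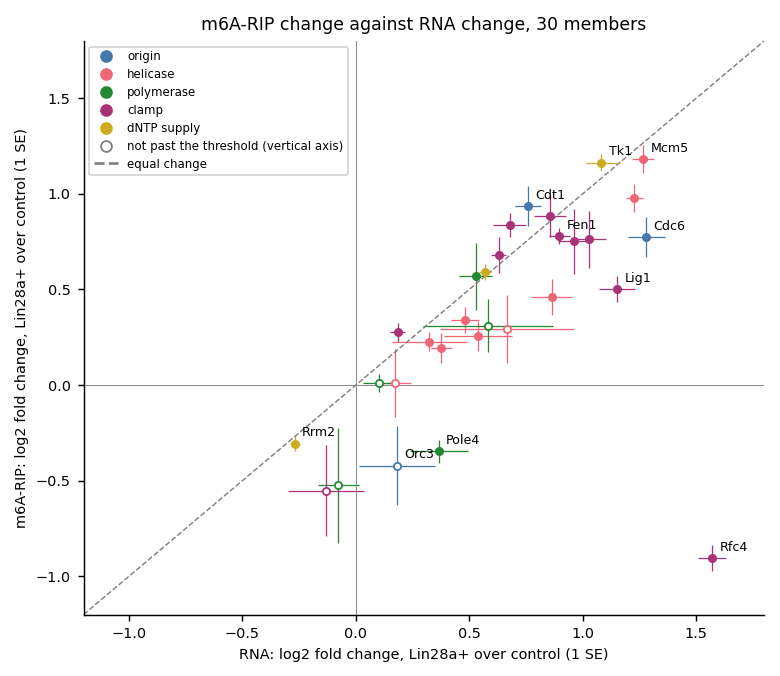
Log2 fold change in m6A-RIP (vertical axis) against that in RNA (horizontal axis) for the 30 members with m6A rows, with 1 SE each way and 2 libraries a group. Most points lie near or just below the dashed line of equal change, and Rfc4 stands apart at 1.57 in RNA and -0.90 in m6A-RIP.

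The m6A table gives transcripts but no positions, so rows of a member were also read 1 by 1. Of 47 rows of the 30 members, 26 rose and 8 fell, where 30.0% of all 18881 rows rose and 31.8% fell. Both rows of Rfc2, of Tk1 and of Rrm2 moved in the direction of their gene. Those of Lig1 split by transcript: the 2 rows of ENSMUST00000147735 had log2 fold changes of 1.11 and 0.87, and the 3 rows of ENSMUST00000148471 had -0.03, -0.12 and -0.04, none of them past the threshold. Cdc6 had 1 row at 1.43 (ENSMUST00000135862, adjusted p = 4.51e-06) and 1 at 0.30 that missed the threshold (ENSMUST00000092706, adjusted p = 0.0972). In Mcm10, both rows of ENSMUST00000139882 rose by 0.91 on the log2 scale, and the row of ENSMUST00000027980 fell (-0.52, adjusted p = 0.0132).

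For 3 members, rows named for the gene lay in another gene wherever a position could be read. Pole4 (chr6:82616532-82653043) had 4 m6A rows on ENSMUST00000161309 that fell, with log2 fold changes from -0.69 to -0.44, and 1 row on ENSMUST00000160281 that rose (0.55, adjusted p = 0.000373). The 9 Lin28a-RIP peaks and 4 Igf2bp3-RIP peaks on ENSMUST00000161309 all lay at least 72071 bases outside Pole4, within the hexokinase gene Hk2, whose RNA fell from 65.2 and 65.8 to 43 and 37 CPM (log2 fold change -0.71, adjusted p = 0.000437). The only m6A row of Rfc4, on ENSMUST00000147321, shares its transcript with 1 Lin28a-RIP peak that lay 437 bases outside Rfc4, within Eif4a2, whose RNA had a log2 fold change of -0.71 (adjusted p = 0.000148) beside -0.90 for the Rfc4 row in the per-gene test. Both m6A rows of Gins2 were on ENSMUST00000155609, whose 3 Lin28a-RIP and 2 Igf2bp3-RIP peaks all lay in Gse1. Of these rows, 1 had a log2 fold change of -0.21 (adjusted p = 0.099) and the other rose (0.94, adjusted p = 1.07e-06), whereas Gse1 fell by 0.46 on the log2 scale in RNA and in m6A-RIP. When rows of such transcripts were left out for all genes, Gins2 and Rfc4 had no m6A row, Pole4 rose from 20.2 and 18.4 to 25.7 and 28.3 CPM (log2 fold change 0.48, adjusted p = 0.00136), and its difference from RNA was 0.11 (SE 0.14, adjusted p = 0.862). Lig1 and Cdc6 then were the members lower relative to input. Leaving out such rows could not reach ENSMUST00000148471 of Lig1 and ENSMUST00000092706 of Cdc6, which have 0 protein-RIP peaks and so no position.

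Igf2bp3-RIP was compared next, in the 18 members it lists. None passed the threshold in either direction, where 0.133% of all 4527 genes rose and 0.155% fell. Also 0 of the 18 had an unadjusted p under 0.05 in edgeR, against 382 of all genes, and DESeq2 called 0 of them, against 50 genes higher and 65 lower over all. The log2 fold changes ran from -0.56 (Gins2) to 0.47 (Orc4), with standard errors of 0.208 to 0.479, and the libraries of the groups overlapped in 12 of 18 members and in 61.8% of all genes. Mcm6 was at 36.9 and 37.2 CPM in control and at 39.6 and 34.9 CPM in Lin28a+ libraries (log2 fold change 0.01, SE 0.225, adjusted p = 0.999). Mcm3 was at 69.1 and 48.8 against 63.1 and 45.8 CPM, and Rrm1 at 558 and 495 against 481 and 527 CPM. In each of these genes, RNA had risen without overlap.

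Igf2bp3-RIP was also set against input in a model of both assays. The median difference of log2 fold changes was -0.69 over the 18 members and 0.03 over all genes, and 1 of 18 values was positive, that of Orc4 (0.40, adjusted p = 0.402), against 2039 of all 3922 genes. Lists beside the members had medians of the same sign: -0.83 over 4 genes of chromatin assembly, -0.65 over 6 of other nucleotide supply, -0.58 over 10 of S-phase cyclins and E2F factors, -0.57 over 8 of G2 and mitosis, -0.51 over 5 myogenic markers, -0.39 over 8 fork and checkpoint partners and -0.05 over 2 of RNase H2 and topoisomerases. In the fit without a replicate block a single member passed the threshold, where 0.688% of all genes were lower and 0.357% higher. That was Mcm6, with a difference of -1.21 (SE 0.153, edgeR adjusted p = 0.0284). It was not called with total counts, nor without peaks outside the span of their gene, where 0 of all genes passed. Without any 1 of the 4 input libraries 0 of all genes passed, and adjusted p for Mcm6 was then 0.26 to 0.31. Without 1 of the 4 Igf2bp3-RIP libraries, Mcm6 passed each time (adjusted p = 0.0183 to 0.0466), and the calls over all genes rose too. Without control replicate 1, 2 members and 56 of all genes were lower. The numbers were 7 and 76 without control replicate 2, 5 and 279 without Lin28a+ replicate 1, and 4 and 97 without Lin28a+ replicate 2, against 1 and 27 with all libraries. At an unadjusted p under 0.05 stood 9 of the 18 members and 944 of all 3922 genes. Cdc6 (-1.68, adjusted p = 0.0677), Mcm3 (-1.32, adjusted p = 0.0781), Mcm10 (-1.28, adjusted p = 0.0519), Gins2 (-1.27, adjusted p = 0.074) and Rrm1 (-0.86, adjusted p = 0.0677) were among the 9 and missed the threshold after adjustment in this fit. With a replicate block the calls for these genes differed, as given in the last paragraph. Both Gins2 peaks lay outside the gene, in Gse1. The helicase members listed (7) were all negative, from -1.32 (Mcm3) to -0.56 (Dbf4), and stayed so with total counts (-1.18 to -0.434) and with TMM factors from all genes of each table (-1.1 to -0.344). Those scalings moved the median of all genes to 0.17 and 0.24 and that of the members to -0.55 and -0.47, and they turned the signs of Orc3 and Rrm2, and the second also that of Pola1.

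**Figure D4:**
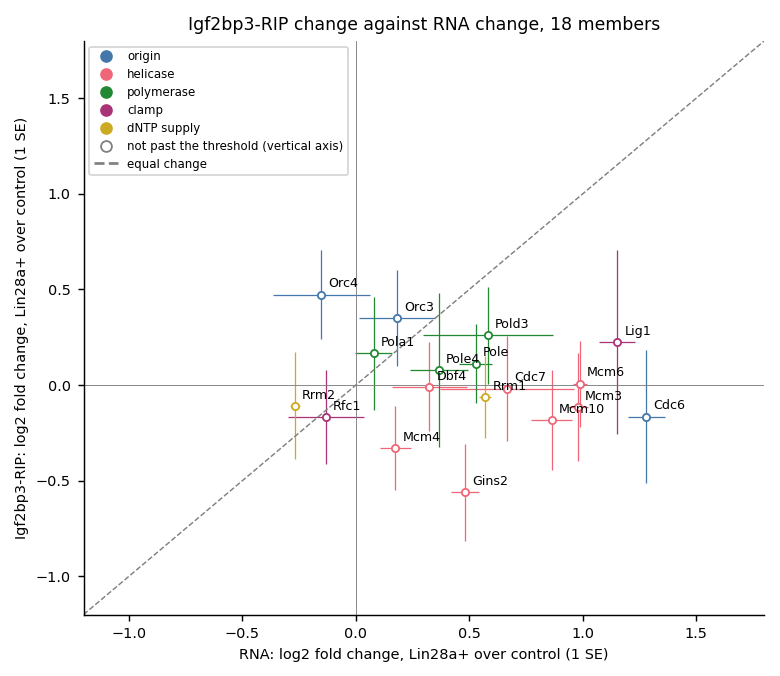
Log2 fold change in Igf2bp3-RIP (vertical axis) against that in RNA (horizontal axis) for the 18 members listed, with 1 SE each way and 2 libraries a group. No point passed the threshold on the vertical axis; the values spread from -0.56 to 0.47 around 0 while those in RNA reach 1.28 (Cdc6).

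Lin28a-RIP was made only in Lin28a+ cells, without a control or a test of change, and it shows which members had peaks. Peaks were listed for 24 of the 49 members (49%), against 2865 of the 11317 genes tested in RNA (25.3%). Counting only peaks within a gene's own RefSeq span, the numbers were 21 members and 2495 genes (22%). Listed were 3 of 9 origin genes, 10 of 14 helicase genes, 4 of 11 polymerase genes, 5 of 12 clamp genes and 2 of 3 dNTP genes. All 6 Mcm ring subunits were among them. The helicase gene Gins2, the polymerase gene Pole4 and the clamp gene Rfc4 were also counted, with 0 peaks within their own span. Pcna, Cdc45, Gins1, Cdt1, Gmnn and Tk1, which all rose in RNA, had no Lin28a-RIP peak listed. The table holds called peaks only, so a gene without one was not shown to be free of Lin28a.

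The 24 members held 187 peaks, a median of 5.5 each against 3 over all listed genes, with a median width of 256 bases against 285. Pole held 33 peaks over a span of 51.1 kb, with 545 and 552 CPM in the 2 libraries summed over its peaks. Pola1, its counterpart in polymerase alpha, held 23 over 328 kb (349 and 345 CPM). Both are catalytic subunits, and both stood high relative to their input level. The log2 ratio of Lin28a-RIP to Lin28a+ input was 4.92 for Pola1 and 4.62 for Pole, at percentiles 91.3 and 89.5 of the listed genes tested in RNA. Rrm1 held 18 peaks (2550 and 2600 CPM, ratio 3.49), Mcm4 14 peaks (812 and 810 CPM, ratio 3.25) and Mcm3 14 peaks (577 and 542 CPM, ratio 2.65). At the other end, Mcm5 had 1 peak (23.9 and 20.6 CPM, ratio -2.20, percentile 6.49) and Rpa1 1 peak (9.59 and 9.29 CPM, ratio -3.71, percentile 0.838). The ring subunits thus ran from 1 peak in Mcm5 and Mcm7 to 14 in Mcm3 and Mcm4. The median ratio was 1.42 over the 24 members and 1.66 over the 2865 listed genes. The part of gene length and RNA level in the number of peaks was not tested.

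The highest peak of Rrm1 lay at chr7:102468124-102468789, 95.3% of the way along the gene, with 358 and 346 CPM. That of Mcm3 lay at chr1:20803171-20803802, 97% along (92.1 and 88.8 CPM). That of Dbf4, its only one, lay at chr5:8397334-8398297, 96.7% along (45 and 43.3 CPM). Of 18 members whose highest peak could be placed, 8 had it in the last 20% of the gene and 15 past its middle. The 2 with it nearest the 5′ end were Pola1 (chrX:93603248-93603797, 8.81% along) and Cdc6 (chr11:98910014-98910334, 15.2% along). Places of the highest peak were not counted over all listed genes. In Cdc7, Dbf4, Mcm5, Mcm7, Orc1, Pold1 and Rpa1 the highest peak was the only one. Of the 125 member peaks that could be placed along a gene, 27 (21.6%) lay in its last 20%, against 33.7% of all placed peaks. In Igf2bp3-RIP the corresponding share was 15 of 51 (29.4%) against 43.7%. The peak tables name no build, and their positions were read against RefSeq GRCm38.p6.

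**Figure D5:**
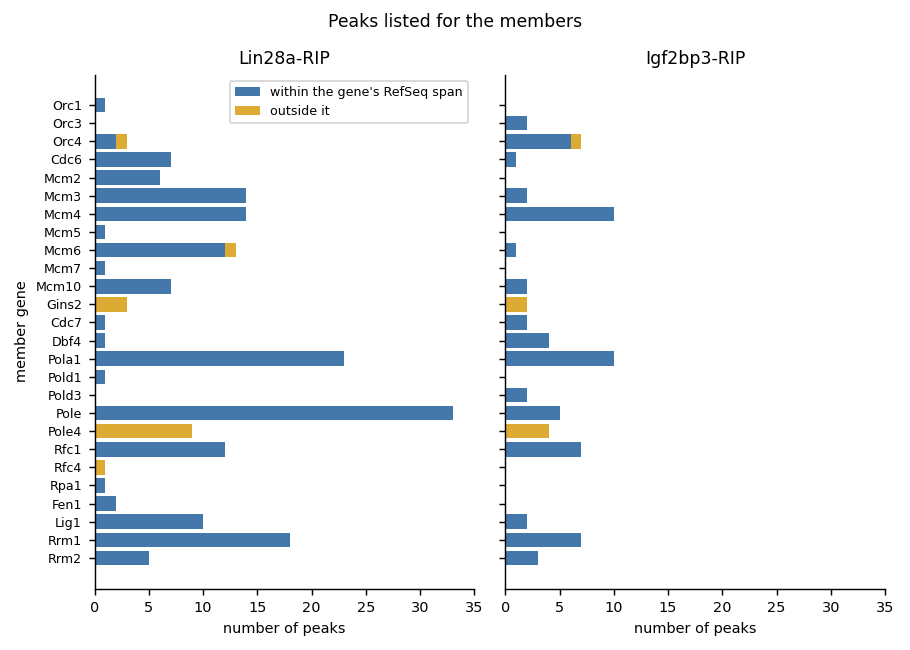
Number of peaks (horizontal axes) listed for each member with a peak in Lin28a-RIP (left) or Igf2bp3-RIP (right), split into those within the gene's RefSeq span (blue) and outside it (yellow). Pole (33) and Pola1 (23) have the longest bars in Lin28a-RIP, and the Pole4 bars lie wholly outside the gene.

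Igf2bp3-RIP peaks were listed for 18 of the 49 members (36.7%), against 32.8% of the genes tested in RNA. Of these, 16 also had Lin28a-RIP peaks, and Orc3 and Pold3 had only Igf2bp3-RIP peaks. A further 8 members had only Lin28a-RIP peaks and 23 had neither. By position, 60 of the 73 Igf2bp3-RIP peaks of members overlapped a Lin28a-RIP peak by at least 1 base (82.2%, against 60.4% of all Igf2bp3-RIP peaks), while, seen from Lin28a, 60 of its 187 member peaks coincided with one of Igf2bp3 (32.1%, against 52.4% of all). In Mcm4, 10 of 14 Lin28a-RIP peaks did so, in Pola1 10 of 23, in Rrm1 7 of 18 and in Pole 5 of 33. In Mcm6, 1 of 13 did, at chr1:128339366-128339671, where the only Igf2bp3-RIP peak of the gene also lies. Rows in all 3 RIP tables were found for 12 members, and 12 members had rows in none. Member peaks counted here include 7 in Igf2bp3-RIP and 15 in Lin28a-RIP that lay outside the member's span. All peaks of Pole4 and Gins2, which have rows in all 3 RIP tables, are among these.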

How the data were processed

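The authors trimmed reads, aligned them with HISAT2 2.0.4 and called m6A peaks with MACS2 1.4.3; the counter is not given in the sources used here. The study's methods name GRCh38, the submitters' processing notes GRCh38 and mm10, and the identifiers are mouse. The input table, as deposited by the authors, holds estimated counts per gene, most of them not whole. They were rounded. The deposited m6A-RIP table holds counts per peak row of a transcript, and the Igf2bp3-RIP and Lin28a-RIP tables hold counts per peak. The counts were summed per gene.

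In the input table, the columns of Lin28a+ cells are headed as m6A. They were taken as input from the table they stand in, with the replicate numbers of those headings used only for a replicate block. The 2 Lin28a+ columns of the m6A table share 1 name and have no number of their own.

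Genes were filtered with filterByExpr, scaled by TMM and tested with edgeR 4.0.16 (quasi-likelihood test, Benjamini-Hochberg adjustment over all genes, threshold 0.05) in R 4.3.3. Each test compared 2 with 2 libraries. Changes relative to input came from the interaction of assay and group, with TMM factors over genes in both tables. CPM of Lin28a-RIP are relative to the total of its table. Alternatives were DESeq2 1.42.0, its size factors, total counts, other filters, the replicate number as a block and leaving out each library. TMM factors over all genes in the relative tests, the block in the test relative to input, and leaving out rows or peaks outside the named gene, were added after seeing the data. Scripts were tested on simulated data. Promoters, spans and positions came from RefSeq (GRCm38.p6).

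Of the members, 12 share bases with a protein-coding neighbour, and use of strand in counting is not given in the sources used here. Libraries of 1 group differed by more than sampling noise in every group. Values in every library are given for up to 3 members of each subcomplex with the largest RNA change past the threshold, for members past it against the common direction or relative to input, for the 4 with the most Lin28a-RIP peaks, and for up to 3 genes each way of the other lists. Other members named with values, and the peaks whose positions are given, were picked with their values in view. The members and lists were chosen with earlier results of these data known.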

Additional observations from a re-analysis of the deposited data

How the results depend on the processing

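With 1 library left out, the number of members higher in RNA was 32 to 34 (38 with all libraries). Orc5 was lost each time, Cdc7, Dna2, Gins3 and Mcm4 in 3 of the 4 cases, and Orc6 and Pole4 in 2. DESeq2 called 26 members higher, all among the 38, and over all genes 1479 higher and 1560 lower (3184 and 3248 with edgeR). Rrm2 stayed the 1 member lower in RNA under each alternative run. For m6A-RIP per gene, 18 to 20 members were higher with 1 library left out (20 with all). The number lower (3) became 5 with total counts, 1 without rows of transcripts whose protein-RIP peaks lie outside the gene, and 3 to 5 with 1 library left out, the 5 without the first Lin28a+ m6A-RIP library. Without those rows Pole4 turned to 0.48 in m6A-RIP and to 0.11 relative to input. For m6A relative to input, the number lower (4) became 2 without those rows and 2 to 4 with 1 library left out, the 2 without control input replicate 1 or the second Lin28a+ input library. Cdc6 missed the threshold in 8 alternatives (adjusted p = 0.0522 to 0.317). For Igf2bp3-RIP relative to input, the number lower (1) became 0 with total counts, 2 with at least 10 counts in every library, 2 with TMM factors over all genes, 0 without peaks outside the gene, and 0 to 7 with 1 library left out. It was 0 without any 1 of the 4 input libraries, and 2, 7, 5 and 4 without control Igf2bp3-RIP replicate 1, control replicate 2, Lin28a+ replicate 1 and Lin28a+ replicate 2. Over all genes, the number lower (27) was 13, 29 and 32 under those scalings and that filter (total counts, at least 10 counts, TMM over all genes), 0 without peaks outside the gene, 0 without an input library, and 56, 76, 279 and 97 without the Igf2bp3-RIP libraries in the same order. The share of member Lin28a-RIP peaks that overlap an Igf2bp3-RIP peak (32.1%) became 24.6% when each had to cover 50% of the other and 24.1% for peaks whose count reached 100 in each library. The causes of these moves were not tested, beyond the fewer rows or libraries in each. A tally was made only for genes picked by rule. These were, in each subcomplex, up to 3 members with the largest RNA change past the threshold. Added to them were members lower in RNA or m6A-RIP or past the threshold relative to input. Of 244 alternatives of these genes, 226 kept direction and side of the threshold, 16 lost the call and 2 turned direction. Lost RNA calls of other members, such as Orc5, Cdc7 and Mcm4, are not in this tally.

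Replicate numbers were used as a block in RNA, where those of the Lin28a+ libraries stand in headings that name m6A, and in Igf2bp3-RIP. Differences between replicates 1 and 2 in the groups correlated with r = 0.11 across 11317 genes in RNA and r = 0.683 across 4527 genes in Igf2bp3-RIP. Genes are not independent, and with only 2 numbers this does not show pairing. With the replicate block 38 members were higher and 1 lower in RNA, as without it, and over all genes 3254 and 3280. In Igf2bp3-RIP 0 members passed in either direction, as without the block, and 160 genes were higher and 214 lower (6 and 7 without it). For Igf2bp3-RIP relative to input, 8 members were lower with the replicate block (1 without it), namely Cdc6, Gins2, Lig1, Mcm10, Mcm3, Mcm4, Mcm6 and Rrm1, and over all genes 330 were higher and 390 lower. No paired analysis was possible for m6A-RIP because its 2 Lin28a+ columns share 1 name.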
